A study of Rattus norvegicus with 12 samples.

Results

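The genes described here are 39 listed members of the machinery that copies DNA in S phase, chosen by symbol from 30454 genes in a rat RNA sequencing table. They match 40 rows, because Cdc45 has 2 rows, of which 1 holds no count in any library and is not used. All 39 members passed the filter on low counts, along with 13692 genes in all. By role the members comprise 16 genes of origin licensing and the replicative helicase, 14 of polymerases and the fork, 4 of nucleotide supply and 5 S phase regulators and chromatin factors. The cells are labelled PC12, a line derived from a rat adrenal medulla tumour, and every group went through oxygen-glucose deprivation followed by reoxygenation. The group OGDR had nothing further, the group MSCs was also given mesenchymal stem cells, and the group rTMS-MSCs received both the stem cells and repetitive transcranial magnetic stimulation at 10 Hz, with all libraries taken at 48 h after treatment. Each group has 4 libraries. The species of the stem cells and how they met the PC12 cells are not stated in the labels, and no group without deprivation was analysed here.

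Chromosome copying starts at origins that the origin recognition complex, Cdc6 and Cdt1 have loaded with the ring of Mcm2 to Mcm7. Cdc45 and the GINS proteins turn that ring into the moving helicase, and polymerases, the sliding clamp Pcna, its loader and the flap and nick enzymes then build the new strands from nucleotides made by ribonucleotide reductase, thymidylate synthase and thymidine kinase. Transcription of most of these genes is known to rise as cells enter S phase, when E2F factors at their promoters change from repressed to active, so their RNA is widely read as a sign of proliferation in cultured cells.

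Values are given as CPM, the share of a gene in the TMM-scaled library total, and levels are compared between libraries and not between genes, since no gene length entered them. The libraries held between 18246250 and 20471838 counts in genes. Comparisons are contrasts of the edgeR quasi-likelihood test over all 12 libraries, and the words rose, fell and changed stand for a Benjamini-Hochberg adjusted p under 0.05, taken over the 13692 genes. Errors are the SD of 4 libraries for CPM and the standard error (SE) for log2 fold changes, and a value printed beside an adjusted p is a log2 fold change. Whether the samples within a group came from separate cultures is not in the labels, and p-values therefore measure only the spread between these samples, which may be technical. In bulk RNA, fewer cells of a type and less RNA per cell cannot be told apart. Of 14 markers of adrenal chromaffin cells, 6 were under 1 CPM in every library of the cells labelled PC12 and 8 passed the filter on low counts. Ddc and Hand2 had no count, Pnmt, Chga and Chgb were also under that limit, and Th averaged 0.479 CPM, whereas the vesicle amine transporter Slc18a2 averaged 9.97 CPM and the granule protein Scg2 234 CPM. The glial markers Sox10 and S100b averaged 397 and 257 CPM. Library rTMS-MSCs 3 stood apart from its replicates. Its root mean square deviation over the members was 0.160 on the log2 scale, against 0.0718 to 0.120 in the other 11 libraries. Member counts with the stimulation and over the combined treatment are also given without it, alone and together with MSCs 3. MSCs 3, at 0.0807, did not stand apart in this way.

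Promoters of 32 of the 39 members were found in the RefSeq table of gene starts (build GRCr8, 250 bases before to 50 after the start; Orc1, Cdc6, Mcm4, Gins4, Rrm2, Ccne2 and E2f1 were not in it), and a word of the E2F type was commoner among them than among tested genes at large. The word searched was TTTNNCGC with each N either C or G, on both strands, and it stood in 15 of 32 member promoters (46.9%), in 4.32% of 9773 tested genes with a promoter and in 2.37% of all 27457 genes with a promoter in the table. The windows below, 150 bases before to 30 after the start, are shown for the MCM subunits that hold the word, for Gins1 and Uhrf1, whose RNA changed with the stimulation, and for Tk1, which has the smallest adjusted p of any member and holds no such word in its 300 bases. Bases in capitals are the E2F word, and in Mcm2, Mcm6 and Gins1 the words of both strands overlap in 1 run. A gene counted as holding a word if any of its starts did. For Uhrf1 the start with the most E2F words, start 3, is printed, and its starts 1 and 2 hold no E2F word.
Mcm2 chr4:122918065-122918244 strand -: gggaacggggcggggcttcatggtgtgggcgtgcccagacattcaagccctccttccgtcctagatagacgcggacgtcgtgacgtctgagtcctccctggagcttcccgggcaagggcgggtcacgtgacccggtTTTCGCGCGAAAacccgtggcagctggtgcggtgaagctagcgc
Mcm3 chr9:30733717-30733896 strand -: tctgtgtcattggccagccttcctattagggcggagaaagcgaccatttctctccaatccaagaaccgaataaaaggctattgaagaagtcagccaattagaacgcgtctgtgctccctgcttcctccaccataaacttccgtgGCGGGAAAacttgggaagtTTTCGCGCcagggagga
Mcm5 chr19:13488663-13488842 strand +: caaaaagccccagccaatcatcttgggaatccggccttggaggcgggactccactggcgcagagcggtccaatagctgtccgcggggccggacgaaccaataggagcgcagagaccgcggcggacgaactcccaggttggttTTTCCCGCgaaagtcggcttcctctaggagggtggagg
Mcm6 chr13:42404323-42404502 strand -: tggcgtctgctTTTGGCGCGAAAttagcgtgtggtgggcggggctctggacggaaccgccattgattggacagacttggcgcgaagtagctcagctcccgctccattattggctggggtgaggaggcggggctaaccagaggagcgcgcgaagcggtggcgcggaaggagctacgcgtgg
Mcm7 chr12:22163149-22163328 strand -: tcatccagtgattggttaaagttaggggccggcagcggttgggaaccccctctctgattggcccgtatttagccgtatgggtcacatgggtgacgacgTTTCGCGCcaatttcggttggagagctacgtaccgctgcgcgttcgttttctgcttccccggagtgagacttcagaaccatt
Gins1 chr3:160184770-160184949 strand +: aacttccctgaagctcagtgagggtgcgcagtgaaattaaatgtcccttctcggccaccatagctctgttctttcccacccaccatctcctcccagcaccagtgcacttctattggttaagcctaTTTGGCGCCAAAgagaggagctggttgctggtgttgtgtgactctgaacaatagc
Uhrf1, start 3, chr9:1223036-1223215 strand +: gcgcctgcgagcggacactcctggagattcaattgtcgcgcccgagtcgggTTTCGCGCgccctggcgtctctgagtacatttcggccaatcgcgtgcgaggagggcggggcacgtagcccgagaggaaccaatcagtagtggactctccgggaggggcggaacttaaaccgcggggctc
Tk1 chr10:103544748-103544927 strand -: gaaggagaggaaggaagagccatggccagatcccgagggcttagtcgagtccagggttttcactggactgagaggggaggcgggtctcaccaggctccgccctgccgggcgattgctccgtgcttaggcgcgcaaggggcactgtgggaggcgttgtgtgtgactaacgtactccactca

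Counted from the start, with negative values before it, the printed words begin at -14 and -10 in Mcm2, -6 and 13 in Mcm3, -8 in Mcm5, -139 and -135 in Mcm6 and -52 in Mcm7, so they lie at the start in the first 3 and further upstream in the others. In Mcm7 its last base is also the first base of a CCAAT word, the site of the factor NF-Y. By role the E2F word was in 8 of 12 licensing and helicase promoters, 5 of 14 of the polymerases and fork, 1 of 3 of nucleotide supply and 1 of 3 of the regulators. CCAAT, searched on both strands, was in 21 of 32 member promoters (65.6%) against 39.7% of tested genes, and the GC box GGGCGG in 21 of 32 (65.6%) against 63.3%. TTTGAA, a form of the cell cycle homology region (CHR) known from mitotic genes, was in 2 of 32 (6.25%, Mcm2 and Gins3) against 12.7% of tested genes. A word is a match of letters and not a binding site. By response, the E2F word was in 5 of 8 members with a promoter that rose with MSCs, in 2 of 7 that changed with the stimulation, in 9 of 20 that rose in rTMS-MSCs over OGDR, and in 5 of 10 that changed in no comparison.

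**Figure D1:**
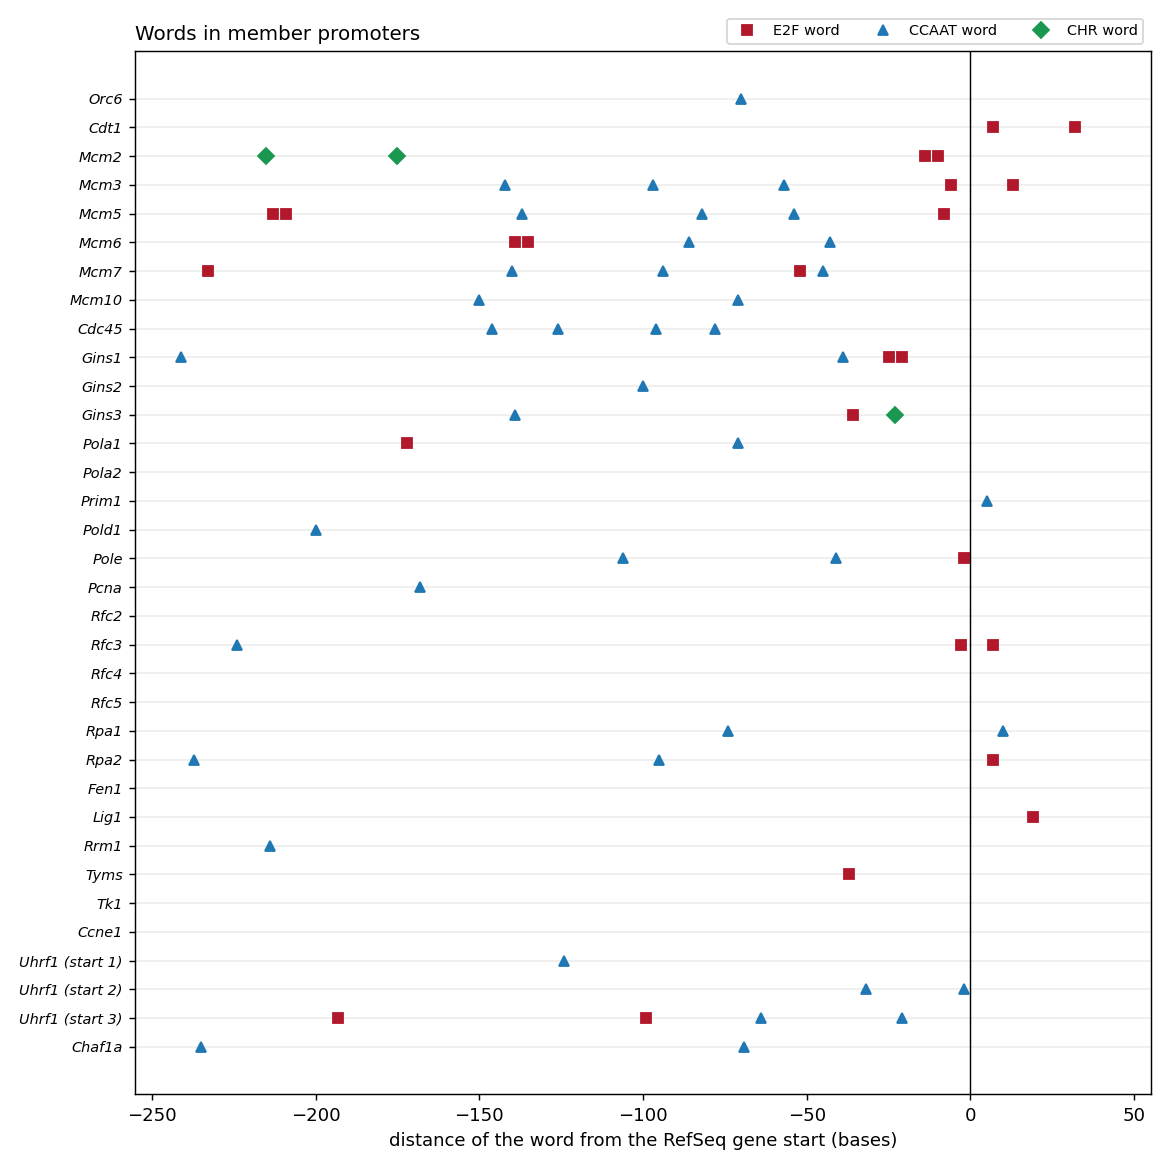
Position of E2F, CCAAT and CHR words in bases from the RefSeq gene start (0, vertical line) for the member promoters in the table, 1 row per start. Red squares (E2F) lie close to the start in Mcm2, Mcm3, Cdt1, Rfc3 and Pole, while Pola2, Rfc2, Rfc4, Rfc5, Fen1, Tk1 and Ccne1 hold none of these words.

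The first comparison sets MSCs against OGDR, and asks what the stem cells add after deprivation. Of 39 members 9 rose (23.1%), while 11.6% of all tested genes were called higher. No member fell, with 8.63% of all genes called lower. By edgeR 0 members were also lower at an unadjusted p under 0.05, and 0 were lower by DESeq2 or by limma voom. Estimates lay above 0 in 34 of 39 members, with 49.7% of all genes above 0. The median log2 fold change was 0.09 against -0.00 over all genes. The changes were small, from -0.13 to 0.32. In the lists described below, estimates lay above 0 in 29 of 48 other replication genes, 22 of 28 genes of S phase entry and 30 of 36 mitosis genes. The 4 MSCs values all lay above the 4 OGDR values in 11 members, with 13.2% of all genes apart in that direction, and below them in 0 members, with 11.5% of all genes (24.7% were apart in either direction).

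The second comparison sets rTMS-MSCs against MSCs and so carries the added stimulation. Here 6 members rose and 2 fell, 20.5% of the 39 against 18.1% of all genes, which is close to the background. The higher calls were 15.4% of members against 7.14% of all genes, and the lower calls 5.13% against 10.9%. Estimates lay on both sides, 24 above 0 and 15 below, with 52.4% of all genes above 0. They ran from -0.42 to 0.36 with a median of 0.05 against 0.02 over all genes. Groups were apart in 5 members upward, with 8.25% of all genes, and in 3 downward, with 10.8% (19% were apart in either direction). Without rTMS-MSCs 3 alone, 4 members were called higher and 2 lower, and the calls over all genes were 1480. Without MSCs 3 alone, these counts were 2, 2 and 1006. Without MSCs 3 and rTMS-MSCs 3 together, 2 members were called higher and 2 lower, and the calls over all genes were 677. With single libraries left out, 3 members were higher without MSCs 1, 2 without MSCs 3 and 3 without rTMS-MSCs 2. The higher calls over all genes were then 2.85%, 2.04% and 4.18%. Of the members 4 were lower without MSCs 2 and 5 without rTMS-MSCs 4, with 10.9% and 13.3% of all genes called lower.

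The third comparison sets rTMS-MSCs against OGDR, the whole of the combined treatment, and held the most calls. It shares its libraries with the other comparisons and is not independent of them. Of 39 members 21 rose (53.8%), with 16.2% of all genes called higher, and 1 fell (2.56%), with 16.2% of all genes called lower. Estimates were above 0 in 31 of 39 members, with 51.2% of all genes above 0. The members had a median of 0.20 against 0.01 over all genes and a range from -0.37 to 0.42. The groups were apart upward in 20 members, with 15.5% of all genes, and downward in 1, with 14.8% (30.3% of all genes were apart in either direction). Of single libraries left out, OGDR 4 cost the most calls. Without it 14 members rose and 1 fell, with 13.1% of all genes called higher and 12.7% lower. Without rTMS-MSCs 3 alone, 16 members rose and 1 fell, with 14.0% of all genes called higher and 13.5% lower. Without MSCs 3 and rTMS-MSCs 3 together, 17 members rose and 1 fell, with 14.4% of all genes called in each direction. Without rTMS-MSCs 4, 2 members were lower, with 17.3% of all genes called lower.

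Summed over the members, the level was 4089 ± 133 CPM in OGDR, 4495 ± 83.7 CPM in MSCs and 4550.5 ± 76.7 CPM in rTMS-MSCs (SD, n = 4 each). The OGDR libraries ranged from 3894 to 4181 CPM and lay below every library of the treated groups, whose lowest were 4419 and 4456 CPM. The 2 treated groups overlapped. OGDR 4 was the lowest of its 4 libraries in 22 of 39 members. In all, 25 members changed in at least 1 comparison and 14 in none, and no member changed in all 3. The like counts over all genes were not made, so these 3 counts have no background here. In the single comparisons, in the order given above, 20.2%, 18.1% and 32.4% of all genes were called in either direction.

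**Figure D2:**
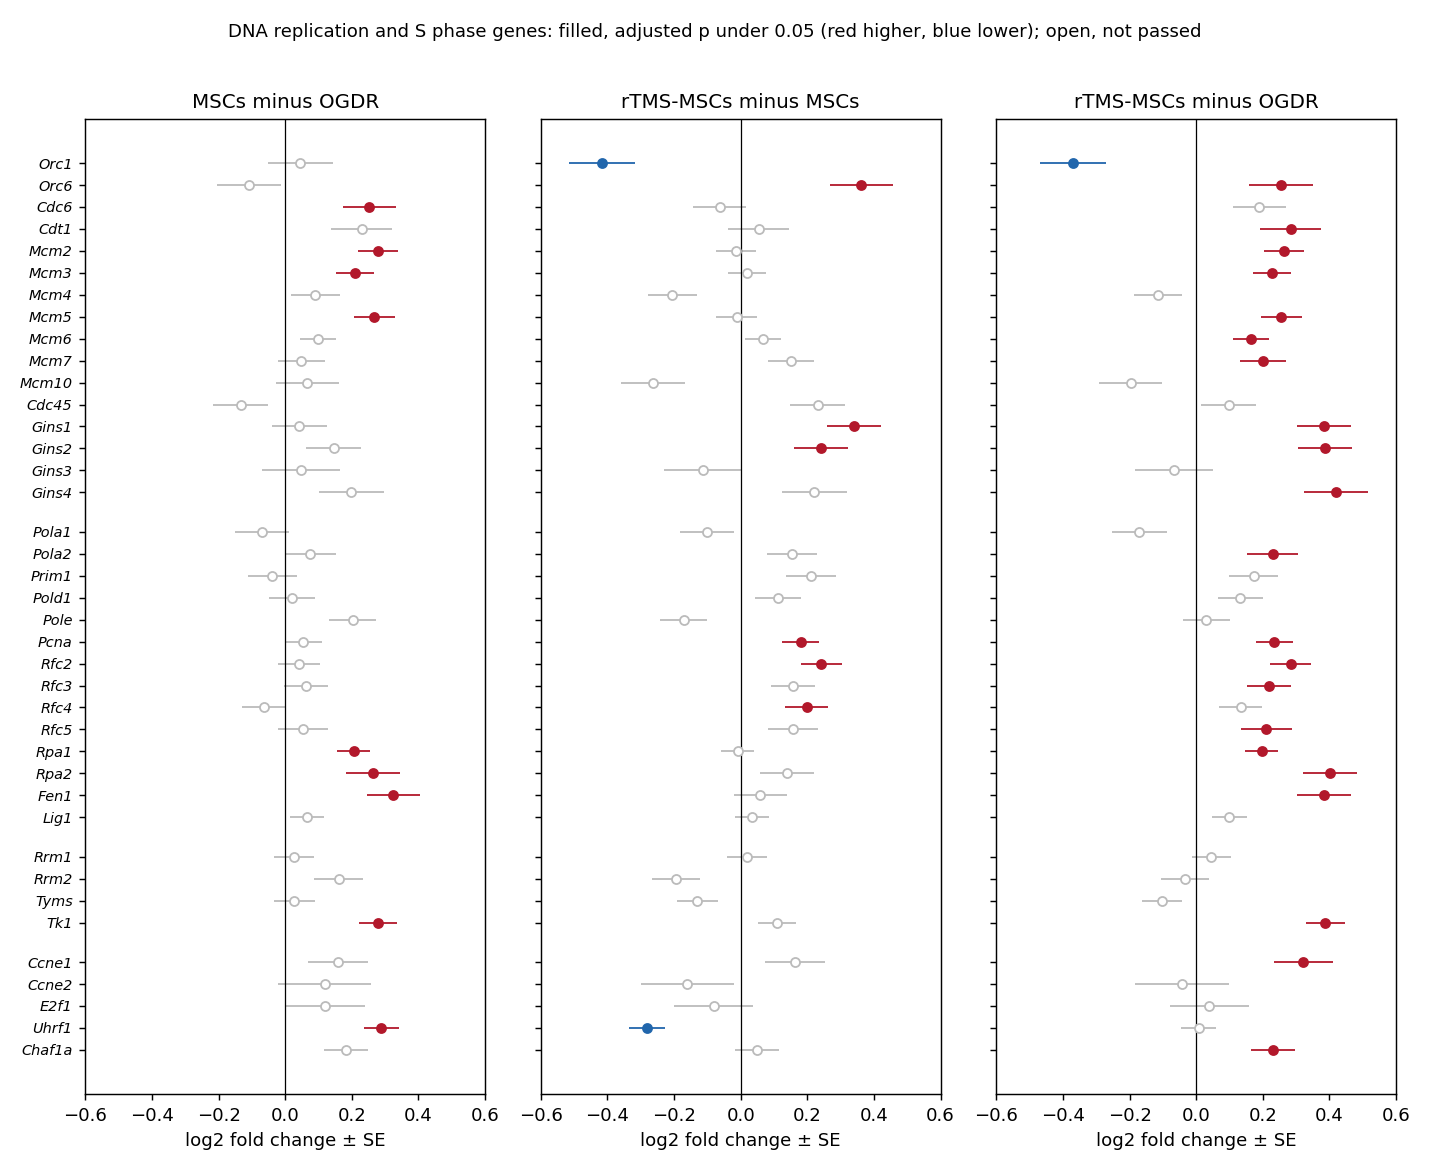
Log2 fold change ± SE of each member in the 3 comparisons, in blocks by role from top to bottom (licensing and helicase, polymerases and fork, nucleotide supply, regulators and chromatin), with filled points for adjusted p under 0.05. In the right panel 21 filled points lie above 0 and 1, Orc1, below.

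**Figure D3:**
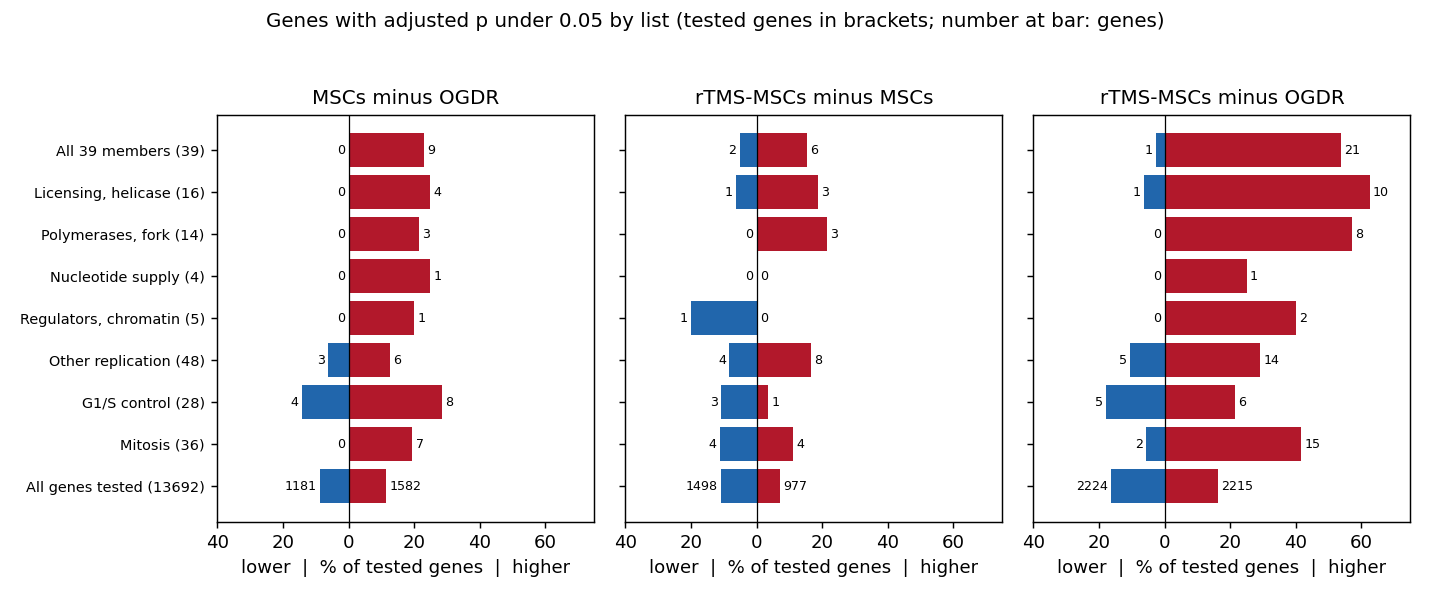
Percent of tested genes called higher (right, red) and lower (left, blue) in each comparison for the members, their roles, 3 related lists and all genes, with the number of genes at each bar. The member bars to the right exceed those of all genes in each panel, 9, 6 and 21 genes, and most of all in rTMS-MSCs minus OGDR.

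Within the helicase ring, Mcm2, Mcm3 and Mcm5 rose with MSCs and were also higher in rTMS-MSCs than in OGDR. Mcm2 measured 201, 202, 185 and 167 CPM in OGDR, 232, 237, 229 and 218 CPM in MSCs and 218, 228, 238 and 223 CPM in rTMS-MSCs. Every treated library lay above every OGDR library, and the 2 treated groups overlapped. The log2 fold change of MSCs over OGDR was 0.28 (SE 0.0602, adjusted p = 0.00200) and that of rTMS-MSCs over OGDR 0.26 (SE 0.0602, adjusted p = 0.00229), with -0.01 (adjusted p = 0.888, 95% interval -0.14 to 0.11) between the treated groups. Mcm5 measured 231, 224, 207 and 193 CPM in OGDR, 245, 274, 253 and 259 CPM in MSCs and 247, 256, 276 and 243 CPM in rTMS-MSCs. It showed the same arrangement, with OGDR the lowest group and no overlap with either treated group, at 0.27 (SE 0.0614, adjusted p = 0.00332) for MSCs and 0.26 (SE 0.0614, adjusted p = 0.00331) for rTMS-MSCs over OGDR. Mcm3 measured 154, 165, 148 and 142 CPM in OGDR, 172, 176, 175 and 181 CPM in MSCs and 164, 181, 184 and 185 CPM in rTMS-MSCs. Its MSCs values lay above OGDR throughout, while rTMS-MSCs 1 lay just below the highest OGDR library. The changes over OGDR were 0.21 (SE 0.0569, adjusted p = 0.0118) and 0.23 (SE 0.0569, adjusted p = 0.00444).

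The other subunits of the ring passed in fewer comparisons. Mcm6 and Mcm7 rose over the combined treatment, by 0.16 (adjusted p = 0.0239) and 0.20 (adjusted p = 0.0323), and estimates with MSCs alone were 0.10 (adjusted p = 0.220, 95% interval -0.01 to 0.21) and 0.05 (adjusted p = 0.682, 95% interval -0.10 to 0.19). The difference between those comparisons is the contrast rTMS-MSCs minus MSCs, at 0.07 (adjusted p = 0.406) and 0.15 (adjusted p = 0.131). Mcm4, 191 ± 6.96 CPM in OGDR, 203 ± 12.6 CPM in MSCs and 176 ± 22.0 CPM in rTMS-MSCs, passed in no comparison, with 0.09 (adjusted p = 0.430), -0.21 (adjusted p = 0.0564) and -0.11 (adjusted p = 0.249) in the order given above. Its lowest value, 147 CPM, was in rTMS-MSCs 3, the library that stood apart. The Mcm6 call was lost without OGDR 3, OGDR 4 or rTMS-MSCs 2, and the Mcm7 call without OGDR 3, OGDR 4 or rTMS-MSCs 3.

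The GINS complex, the partner of Cdc45 in the moving helicase, held members that passed with the stimulation and not with MSCs, Gins1 and Gins2. Gins1 measured 24.9, 26.8, 24.3 and 26.4 CPM in OGDR, 25.4, 23.9, 28.6 and 27.7 CPM in MSCs and 31.9, 33.1, 35.6 and 33.1 CPM in rTMS-MSCs. OGDR and MSCs overlapped, and all 4 rTMS-MSCs libraries were above them. The change was 0.34 (SE 0.0813, adjusted p = 0.00820) over MSCs and 0.38 (SE 0.0812, adjusted p = 0.00123) over OGDR, with 0.04 (adjusted p = 0.775, 95% interval -0.13 to 0.21) for MSCs over OGDR. Both calls passed in each of 22 alternatives. Gins2 measured 35.3, 37.1, 31.5 and 32.1 CPM in OGDR, 35.2, 38.5, 35.4 and 41.4 CPM in MSCs and 44.5, 46.9, 45.8 and 40.6 CPM in rTMS-MSCs. Here the treated groups overlapped in the MSCs 4 library, and the change was 0.24 (SE 0.0814, adjusted p = 0.0462) over MSCs and 0.39 (SE 0.0816, adjusted p = 0.00120) over OGDR. The first of these was lost in 13 of 22 alternatives, among them the removal of any 1 of OGDR 1, OGDR 3, OGDR 4, MSCs 1, MSCs 2, MSCs 3, rTMS-MSCs 1, rTMS-MSCs 2 or rTMS-MSCs 3.

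Gins4 measured 19.0, 21.3, 19.9 and 17.4 CPM in OGDR, 20.4, 20.2, 22.0 and 26.4 CPM in MSCs and 26.8, 24.9, 26.0 and 26.1 CPM in rTMS-MSCs. The rTMS-MSCs values were all above OGDR, and the MSCs values overlapped both groups, with MSCs 4 the high library. Gins4 rose over OGDR by 0.42 (SE 0.0972, adjusted p = 0.00256), the largest estimate among the members, with 0.20 (adjusted p = 0.169) and 0.22 (adjusted p = 0.113) for the separate steps. Gins3, 14.6 ± 1.65 CPM in OGDR, 15.1 ± 1.17 CPM in MSCs and 14.0 ± 1.95 CPM in rTMS-MSCs, passed nowhere, with estimates of 0.05, -0.11 and -0.07. Cdc45, the third helicase component, passed in no comparison either, at -0.13 (adjusted p = 0.288), 0.23 (adjusted p = 0.0582) and 0.10 (adjusted p = 0.394), as did Mcm10, which acts in the start of unwinding, at 0.07 (adjusted p = 0.681), -0.26 (adjusted p = 0.0586) and -0.20 (adjusted p = 0.121).

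The origin recognition complex marks origins, and its subunits Orc1 and Orc6 went opposite ways with the stimulation. Orc1, the largest subunit, measured 30.4, 26.8, 27.2 and 25.7 CPM in OGDR, 32.6, 25.6, 28.4 and 27.0 CPM in MSCs and 21.5, 24.5, 18.9 and 20.3 CPM in rTMS-MSCs. OGDR and MSCs overlapped, and every rTMS-MSCs library was lower than every library of both. It fell by 0.42 on the log2 scale against MSCs (SE 0.0989, adjusted p = 0.00820) and by 0.37 against OGDR (SE 0.0988, adjusted p = 0.00715), and both calls passed in each of 22 alternatives. Its value was lowest in rTMS-MSCs 3. Orc6 averaged 22.7 ± 0.510 CPM in OGDR, 21.1 ± 2.29 CPM in MSCs and 27.1 ± 2.69 CPM in rTMS-MSCs, and rose by 0.36 (SE 0.0954, adjusted p = 0.0145) against MSCs and 0.25 (adjusted p = 0.0456) against OGDR. The first Orc6 call was lost without MSCs 3 (adjusted p = 0.0657). The second was lost without any 1 of the OGDR libraries, MSCs 1, MSCs 2, MSCs 4, rTMS-MSCs 1, rTMS-MSCs 2 or rTMS-MSCs 4.

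The loaders Cdc6 and Cdt1, which place the ring on DNA, differed in which comparison passed. Cdc6 averaged 34.3 ± 2.99 CPM in OGDR, 40.8 ± 2.82 CPM in MSCs and 39.1 ± 1.58 CPM in rTMS-MSCs. It rose with MSCs by 0.25 (SE 0.0797, adjusted p = 0.0288) and was at 0.19 (adjusted p = 0.0773) in rTMS-MSCs over OGDR. The MSCs call was lost without OGDR 2, OGDR 4 or MSCs 4. Cdt1 averaged 55.5 ± 6.18 CPM in OGDR, 65.1 ± 4.85 CPM in MSCs and 67.6 ± 8.25 CPM in rTMS-MSCs. It was at 0.23 (adjusted p = 0.0842) with MSCs and rose by 0.28 (SE 0.0914, adjusted p = 0.0221) in rTMS-MSCs over OGDR, a call lost without OGDR 3, OGDR 4, rTMS-MSCs 2 or rTMS-MSCs 3. In the licensing and helicase group as a whole, 4 of 16 rose with MSCs (25%, against 11.6% of all genes called higher). With the stimulation 3 rose and 1 fell (18.8% and 6.25%, against 7.14% and 10.9%), and over the combined treatment 10 rose and 1 fell (62.5% and 6.25%, against 16.2% in each direction).

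**Figure D4:**
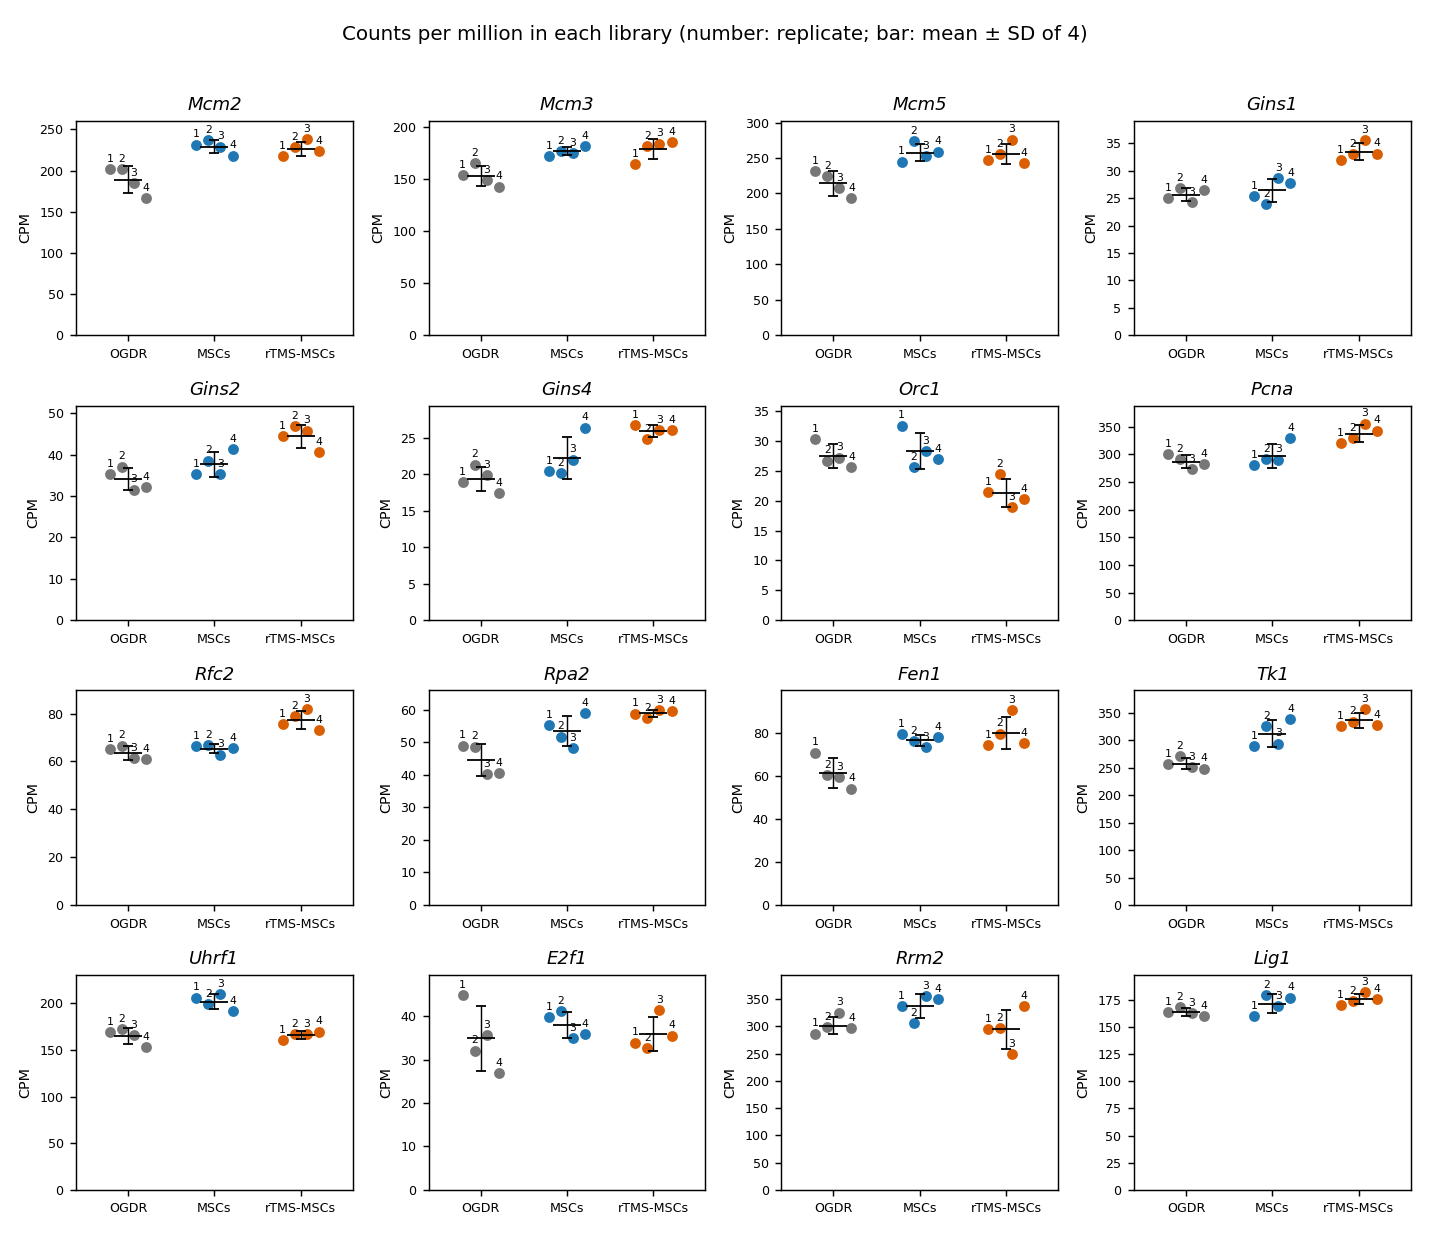
CPM of 16 members in each library (points numbered by replicate, axis from 0) with the mean ± SD of 4 libraries per group, for the 12 named members and Orc1, E2f1, Rrm2 and Lig1. Mcm2 and Tk1 are lowest in OGDR, Gins1 and Rfc2 are highest in rTMS-MSCs, Orc1 is lowest there, and Uhrf1 is high in MSCs alone.

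At the fork, single-strand binding and flap removal genes rose with MSCs, whereas the clamp and part of its loader rose with the stimulation. Fen1, the nuclease that trims flaps between Okazaki fragments, measured 71.0, 60.7, 59.5 and 54.2 CPM in OGDR, 79.5, 76.3, 73.5 and 78.1 CPM in MSCs and 74.4, 79.8, 90.8 and 75.3 CPM in rTMS-MSCs. All treated libraries were above all OGDR libraries, and the highest of all was rTMS-MSCs 3. Fen1 rose by 0.32 (SE 0.0802, adjusted p = 0.00579) with MSCs, the largest estimate of that comparison among the members, and by 0.38 (SE 0.0801, adjusted p = 0.00109) in rTMS-MSCs over OGDR. Rpa2, a subunit of the single-strand binding protein RPA, measured 48.9, 48.7, 40.2 and 40.5 CPM in OGDR, 55.2, 51.7, 48.1 and 59.0 CPM in MSCs and 58.8, 57.3, 59.95 and 59.4 CPM in rTMS-MSCs. OGDR and MSCs overlapped through MSCs 3, and rTMS-MSCs stood above OGDR. The changes over OGDR were 0.26 (SE 0.0817, adjusted p = 0.0259) for MSCs and 0.40 (SE 0.0814, adjusted p = 0.000833) for rTMS-MSCs. The MSCs call was lost without OGDR 3, OGDR 4, MSCs 1 or MSCs 4. Rpa1, the large subunit of the same protein, averaged 160.2 ± 2.53 CPM in OGDR, 185 ± 3.21 CPM in MSCs and 184 ± 7.61 CPM in rTMS-MSCs and rose by 0.21 (adjusted p = 0.00452) and 0.20 (adjusted p = 0.00452) over OGDR.

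Pcna, the sliding clamp that holds polymerases on DNA, measured 300.0, 291, 273 and 282 CPM in OGDR, 280.2, 291, 290.4 and 329.7 CPM in MSCs and 321, 330.0, 355 and 343 CPM in rTMS-MSCs. MSCs 4 reached into the rTMS-MSCs range, and the other MSCs libraries lay within that of OGDR. Pcna rose by 0.18 (SE 0.0567, adjusted p = 0.0343) over MSCs and by 0.23 (SE 0.0568, adjusted p = 0.00348) over OGDR. The first was lost without any 1 of MSCs 1, MSCs 2, MSCs 3, rTMS-MSCs 2, rTMS-MSCs 3 or rTMS-MSCs 4. Rfc2, a subunit of the loader that opens the clamp, measured 65.2, 66.6, 61.2 and 61.0 CPM in OGDR, 66.3, 66.9, 62.8 and 65.4 CPM in MSCs and 75.4, 78.8, 82.0 and 73.0 CPM in rTMS-MSCs. The 4 rTMS-MSCs libraries were above the other 8. Rfc2 rose by 0.24 (SE 0.0619, adjusted p = 0.0122) over MSCs and 0.28 (SE 0.0618, adjusted p = 0.00158) over OGDR, and without MSCs 3 and rTMS-MSCs 3 together the first was 0.19 (adjusted p = 0.103).

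The loader's other small subunits passed in fewer comparisons. With the stimulation Rfc3, Rfc4 and Rfc5 were at 0.16 (adjusted p = 0.102), 0.20 (adjusted p = 0.0400) and 0.16 (adjusted p = 0.148), and over the combined treatment at 0.22 (adjusted p = 0.0156), 0.13 (adjusted p = 0.122) and 0.21 (adjusted p = 0.0377). Rfc3 was lost over the combined treatment without OGDR 4 or rTMS-MSCs 3, and Rfc5 without OGDR 1, OGDR 2, OGDR 3, rTMS-MSCs 1 or rTMS-MSCs 3. The Rfc4 call was lost without OGDR 1, OGDR 4, any 1 of MSCs 1, MSCs 2 and MSCs 3, or any 1 of the rTMS-MSCs libraries.

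Of the polymerase and primase genes Pola2 alone passed, in 1 comparison. Pola1, the catalytic subunit of the primase polymerase, was at -0.07, -0.10 and -0.17 in the 3 comparisons, and its accessory subunit Pola2 at 0.08, 0.15 and 0.23. Pola2 rose over OGDR in rTMS-MSCs (adjusted p = 0.0247), a call lost without OGDR 2, OGDR 4 or rTMS-MSCs 3. The primase Prim1 was at -0.04, 0.21 (adjusted p = 0.0528) and 0.17. Pold1, the catalytic subunit of the lagging strand polymerase, was at 0.02, 0.11 and 0.13. Pole, that of the leading strand, was at 0.20 (adjusted p = 0.0512, 95% interval 0.05 to 0.35) with MSCs, -0.17 (adjusted p = 0.0981, 95% interval -0.32 to -0.02) with the stimulation and 0.03 (adjusted p = 0.781) over the combined treatment. Lig1, which seals the nicks, was at 0.07 with MSCs, 0.03 with the stimulation and 0.10 (adjusted p = 0.154, 95% interval -0.01 to 0.21) over the combined treatment, with the 4 rTMS-MSCs values, 171, 174, 182 and 176 CPM, all above the 4 OGDR values, 164, 169, 163 and 160.1 CPM. In this role 3 of 14 rose with MSCs and 3 with the stimulation (21.4% each, against 11.6% and 7.14% of all genes called higher), and 8 rose over the combined treatment (57.1%, against 16.2%).

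Of the nucleotide supply genes only Tk1 changed. Tk1, the thymidine kinase of the salvage route, measured 257, 271, 251 and 249 CPM in OGDR, 289, 327, 294 and 339 CPM in MSCs and 326, 334, 357 and 328 CPM in rTMS-MSCs. All treated libraries were above OGDR, and MSCs 2 and MSCs 4 lay within the rTMS-MSCs range. Tk1 rose by 0.28 (SE 0.0575, adjusted p = 0.00127) with MSCs and 0.39 (SE 0.0575, adjusted p = 3.23e-05) over the combined treatment, with 0.11 (adjusted p = 0.190, 95% interval -0.01 to 0.23) between the treated groups. The enzymes of the other routes passed in no comparison. Rrm2, the small subunit of ribonucleotide reductase, averaged 302 ± 16.5 CPM in OGDR, 337 ± 21.9 CPM in MSCs and 295 ± 35.8 CPM in rTMS-MSCs, at 0.16 (adjusted p = 0.132), -0.19 (adjusted p = 0.0675) and -0.03 (adjusted p = 0.762, 95% interval -0.19 to 0.12). Its lowest value in rTMS-MSCs, 249.6 CPM, was in replicate 3. The large subunit Rrm1 averaged 281 ± 8.64 CPM in OGDR, 286 ± 19.2 CPM in MSCs and 289.9 ± 21.4 CPM in rTMS-MSCs, and thymidylate synthase, Tyms, 129.9 ± 6.32 CPM in OGDR, 132 ± 8.80 CPM in MSCs and 121 ± 5.47 CPM in rTMS-MSCs. Over the combined treatment they were at 0.05 (adjusted p = 0.601, 95% interval -0.08 to 0.17) and -0.10 (adjusted p = 0.2105, 95% interval -0.23 to 0.02).

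Uhrf1 was the member that rose with MSCs and fell again with the stimulation. It binds newly copied DNA methylated on 1 strand and brings the maintenance methyltransferase to it. Uhrf1 measured 169, 172, 165 and 153 CPM in OGDR, 206, 199, 210.0 and 191 CPM in MSCs and 160.3, 167, 167 and 169 CPM in rTMS-MSCs. All 4 MSCs libraries were above all others, and OGDR and rTMS-MSCs overlapped. The change was 0.29 (SE 0.0530, adjusted p = 0.000426) with MSCs and -0.28 (SE 0.0531, adjusted p = 0.00245) with the stimulation, and both calls passed in each of 22 alternatives. Over the combined treatment it was 0.01 (adjusted p = 0.937, 95% interval -0.10 to 0.12). The 2 changes share the MSCs libraries, so a high MSCs value moves both.

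Among the other regulators, Ccne1, the cyclin that drives Cdk2 into S phase, averaged 32.7 ± 2.91 CPM in OGDR, 36.5 ± 4.12 CPM in MSCs and 40.8 ± 2.18 CPM in rTMS-MSCs and rose by 0.32 (SE 0.0893, adjusted p = 0.00920) over the combined treatment. Its relative Ccne2 was at -0.04 (adjusted p = 0.854, 95% interval -0.34 to 0.25), with a wide spread in rTMS-MSCs, 31.7, 25.7, 17.1 and 26.4 CPM. Chaf1a, a subunit of the chaperone that places histones on new DNA, rose by 0.23 (SE 0.0659, adjusted p = 0.0108) over the combined treatment, lost without OGDR 4 (adjusted p = 0.0563), and was at 0.18 (adjusted p = 0.0577) with MSCs. E2f1, the activating E2F factor, measured 44.9, 32.1, 35.7 and 26.9 CPM in OGDR, 39.9, 41.2, 34.9 and 36.0 CPM in MSCs and 34.0, 32.7, 41.5 and 35.6 CPM in rTMS-MSCs. The 3 groups overlapped, OGDR spanned the widest range, and the estimates were 0.12 (adjusted p = 0.535, 95% interval -0.13 to 0.37), -0.08 (adjusted p = 0.667, 95% interval -0.33 to 0.17) and 0.04 (adjusted p = 0.835, 95% interval -0.21 to 0.29).

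The libraries of a group did not move as 1 block. In rTMS-MSCs 3 the members split: it was the lowest of its 4 libraries in 12 members and the highest in 19. Its largest deviations below the group mean were in Ccne2 (-0.53), Mcm10 (-0.30), Gins3 (-0.27), Mcm4 (-0.25) and Rrm2 (-0.23) on the log2 scale, and those above in Cdt1 (0.22), E2f1 (0.21) and Fen1 (0.19). Over all genes its deviation was also the largest, at 0.288, and no member is thereby shown to differ from other genes. Without MSCs 3 and rTMS-MSCs 3 together, Gins2 (0.20, adjusted p = 0.230), Pcna (0.14, adjusted p = 0.174), Rfc2 and Rfc4 (0.16, adjusted p = 0.225) no longer passed with the stimulation. Of these, Gins2, Pcna and Rfc4 were also lost without either library alone, and Rfc2 was lost only without both. Over the combined treatment, Cdt1, Mcm7, Pola2 and Rfc5 no longer passed without both, nor without rTMS-MSCs 3 alone.

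**Figure D5:**
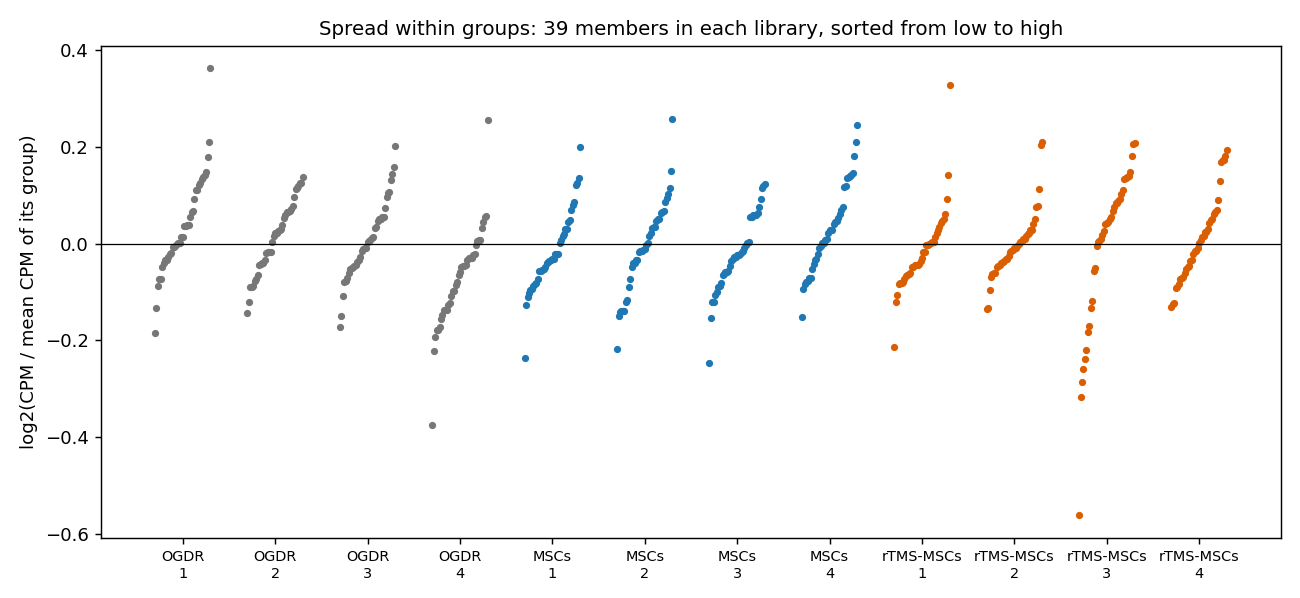
Log2 ratio of the CPM of each of 39 members to its group mean, sorted from low to high within each of the 12 libraries. The points of rTMS-MSCs 3 reach furthest below 0, those of OGDR 4 lie mostly below 0, and the other libraries are centred near 0.

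A wider list of 50 replication genes outside the members had 48 tested. With MSCs 6 rose and 3 fell, 18.8% against 20.2% of all genes, which is at the background. With the stimulation 8 rose and 4 fell (16.7% and 8.33%, against 7.14% and 10.9% of all genes), and over the combined treatment 14 rose and 5 fell (29.2% and 10.4%, against 16.2% in each direction), with medians of 0.04, 0.05 and 0.09. Single libraries moved these counts and also the calls over all genes. With MSCs 2 rose without OGDR 3 or without MSCs 4 and 10 without rTMS-MSCs 3, and 1 fell without MSCs 1 or without MSCs 3. Over all genes 10.1%, 10.9% and 13.6% were then called higher, and 6.52% and 7.11% lower, in the order given. With the stimulation 1 rose without MSCs 3, 2 without MSCs 1, 3 without rTMS-MSCs 2, and 5 without MSCs 2 or without rTMS-MSCs 3. The higher calls over all genes were then 2.04%, 2.85%, 4.18%, 6.81% and 3.43%. Over the combined treatment 2 fell without OGDR 3 or without rTMS-MSCs 2, and 3 without rTMS-MSCs 3. The lower calls over all genes were then 12.3%, 13.1% and 13.5%. The smallest p with MSCs belonged to Clspn, the checkpoint adaptor of the fork, at 0.37 (adjusted p = 0.000448), to the ribonuclease H subunit Rnaseh2b at -0.43 (adjusted p = 0.00124), to the histone chaperone Asf1b at 0.28 (adjusted p = 0.00836) and to Slbp, which binds histone messenger RNA, at 0.19 (adjusted p = 0.0167). The Slbp call was lost without OGDR 3, MSCs 3 or MSCs 4. With the stimulation they belonged to the origin firing factor Ticrr at -0.56 (adjusted p = 0.00512), the nucleotide pyrophosphatase Dctpp1 at 0.46 (adjusted p = 0.00724), the origin firing kinase Cdc7 at -0.36 (adjusted p = 0.0115) and Topbp1, a scaffold of origin firing, at -0.23 (adjusted p = 0.0140). Without MSCs 3 and rTMS-MSCs 3 together, the last 3 were not called, and the list held 1 call with the stimulation, a lower one. Over all genes 1.12% were then called higher with the stimulation and 3.79% lower. Over the combined treatment Asf1b rose by 0.43 (adjusted p = 0.000171), the subunits of an alternative clamp loader Chtf18 and Dscc1 by 0.39 (adjusted p = 0.00165) and 0.38 (adjusted p = 0.00193), and topoisomerase Top1 was lower at -0.44 (adjusted p = 0.00158).

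Genes that control the entry into S phase, 28 tested of 31, were called in both directions. With MSCs 8 rose and 4 fell (28.6% and 14.3%, against 11.6% and 8.63% of all genes). With the stimulation 1 rose and 3 fell, 14.3% against 18.1% of all genes, below the background, and over the combined treatment 6 rose and 5 fell (21.4% and 17.9%, against 16.2% in each direction). The medians were 0.11, -0.10 and 0.03. With MSCs 5 rose without any 1 of OGDR 1, OGDR 2, OGDR 4 and MSCs 4. The higher calls over all genes were then 10.3%, 9.97%, 9.74% and 10.9%. With the stimulation 1 fell without any 1 of MSCs 1, MSCs 3, rTMS-MSCs 2 and rTMS-MSCs 3, and 5 without rTMS-MSCs 4. The lower calls over all genes were then 6.64%, 5.23%, 7.88%, 7.26% and 13.3%. Without MSCs 3 and rTMS-MSCs 3 together Myc was the 1 gene called with the stimulation. Over all genes 1.12% were then called higher and 3.79% lower. The D cyclins, partners of Cdk4 and Cdk6, diverged. With MSCs Ccnd3 rose by 0.71 (adjusted p = 1.61e-07) and Ccnd1 was lower at -0.23 (adjusted p = 0.000433), and over the combined treatment Ccnd3 was at 0.79 (adjusted p = 3.38e-08), Ccnd1 at -0.36 (adjusted p = 2.25e-06) and Ccnd2 at -0.42 (adjusted p = 0.000281). The atypical, repressing factor E2f8 rose with MSCs by 0.45 (adjusted p = 0.000793), and the inhibitor Cdkn2d by 0.32 (adjusted p = 0.00312) and, over the combined treatment, 0.34 (adjusted p = 0.00113). Myc, an activator of growth genes, was lower with MSCs at -0.29 (adjusted p = 0.00773), rose with the stimulation by 0.35 (adjusted p = 0.00498) and was at 0.06 (adjusted p = 0.601) over the combined treatment. With the stimulation Rbl1 and E2f3 were lower at -0.44 (adjusted p = 0.00860) and -0.54 (adjusted p = 0.0303), as was Ccnd1 at -0.13 (adjusted p = 0.0469). The Rbl1 call was lost without MSCs 3 and rTMS-MSCs 3 together (adjusted p = 0.0706). The E2f3 call was lost without any 1 of MSCs 1, MSCs 3, rTMS-MSCs 2 and rTMS-MSCs 3, and the Ccnd1 call of that step in 16 of 22 alternatives, among them the removal of any 1 library but OGDR 4 and rTMS-MSCs 4.

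Mitosis genes form the later program of dividing cells. Of 36 genes 7 rose with MSCs (19.4%, against 11.6% of all genes called higher) and 0 fell (0 lower at an unadjusted p under 0.05 by edgeR, 0 by DESeq2 and 0 by limma voom at the adjusted threshold). With the stimulation 4 rose and 4 fell, 22.2% against 18.1% of all genes, which is near the background, and over the combined treatment 15 rose and 2 fell (41.7% and 5.56%, against 16.2% in each direction). The medians were 0.10, -0.01 and 0.14. Without rTMS-MSCs 3, 12 rose with MSCs, with 13.6% of all genes called higher. With the stimulation 2 rose and 1 fell without any 1 of MSCs 1, MSCs 3 and rTMS-MSCs 3. The higher calls over all genes were then 2.85%, 2.04% and 3.43%, and the lower calls 6.64%, 5.23% and 7.26%. Also with the stimulation, 2 fell without rTMS-MSCs 2 and 9 without rTMS-MSCs 4, with 7.88% and 13.3% of all genes called lower. Over the combined treatment, neither lower call passed without OGDR 3 or without OGDR 4, and 1 fell without rTMS-MSCs 2 or without rTMS-MSCs 3. The lower calls over all genes were then 12.3%, 12.7%, 13.1% and 13.5%. With MSCs the smallest p belonged to separase, Espl1, at 0.31 (adjusted p = 0.000122), the kinase Aurkb at 0.33 (adjusted p = 0.000152), the kinesin Kif20a at 0.27 (adjusted p = 0.000181) and the transcription factor Mybl2 at 0.34 (adjusted p = 0.000787). Over the combined treatment they belonged to Kif20a at 0.37 (adjusted p = 3.87e-06), Mybl2 at 0.42 (adjusted p = 6.84e-05), Aurkb at 0.31 (adjusted p = 0.000282) and survivin, Birc5, at 0.39 (adjusted p = 0.000471). With the stimulation Pttg1 and Cdk1 rose by 0.27 (adjusted p = 0.00756) and 0.22 (adjusted p = 0.00901), and Ccnf and Espl1 were lower at -0.24 (adjusted p = 0.0121) and -0.18 (adjusted p = 0.0238). The Espl1 call was lost without MSCs 1, MSCs 2, MSCs 3, rTMS-MSCs 2 or rTMS-MSCs 3. Without MSCs 3 and rTMS-MSCs 3 together, 11 mitosis genes rose with MSCs, with 12.7% of all genes called higher. With the stimulation 1 gene was then called, a lower one, with 1.12% of all genes called higher and 3.79% lower. Over the combined treatment 15 rose and 1 fell in that setting, with 14.4% of all genes called in each direction. No difference between these lists and the members was tested.

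Markers of other cell types moved in part with the groups. Of 10 stromal markers Lum had no count, and Col1a2, Dcn and Thy1 were under 1 CPM in every library. With MSCs 3 of 7 tested stromal markers rose (Pdgfrb, Nt5e and Col3a1). So did 4 of 7 tested glial and 2 of 8 tested chromaffin markers, while 1 chromaffin marker fell. Neither of the 2 tested macrophage markers was called. Over all genes 11.6% were called higher in this comparison and 8.63% lower. The 10 stromal markers summed to 342 to 358 CPM in OGDR, 368 to 391 CPM in MSCs and 281 to 359 CPM in rTMS-MSCs. Most of this sum was 1 of them, Pdgfra, which averaged 273 CPM over the 12 libraries. The 8 glial markers summed to 749 to 838 CPM in OGDR, 874 to 926 CPM in MSCs and 839.7 to 945 CPM in rTMS-MSCs, so that OGDR was lowest, as in the summed members, and the 14 chromaffin markers, nearly all of it Scg2, to 284 to 352, 202 to 249 and 212 to 229 CPM. The 7 macrophage markers summed to 51.9 to 59.9, 51.3 to 66.8 and 64.4 to 78.0 CPM, nearly all of it Cd14. Their part in the member results was not tested.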

How the data were processed

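RNA of 12 libraries, 4 in each of 3 groups, was analysed from 1 deposited table of raw counts per gene. Per the submitters' processing notes, HISAT2 2.1.0, HTSeq 0.11.2, DESeq2 1.40.1 and the rat build mRatBN7.2 were used. Per the labels' protocols, polyadenylated RNA was enriched on oligo(dT) beads and reverse transcribed from random primers. No source used here gives the strand setting of HTSeq, so reads of a gene and an antisense neighbour cannot be told apart. The series text speaks of a microarray and of 20 samples, whereas the labels describe sequencing libraries. The table columns give the third group's name in reverse order. The table's 5 HTSeq summary lines were left out. The line for reads on no feature held 51.7% to 52.7% of the total of a library's column, genes and summary lines together.

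Counts were analysed in R 4.3.3 with edgeR 4.0.16: filterByExpr (minimum count 10, minimum total 15) kept 13692 of 20776 genes with a count, TMM gave the library scaling, and a quasi-likelihood model of the 3 group means covered the 12 libraries without a replicate block. The 3 contrasts were 2-sided, Benjamini-Hochberg adjusted over the tested genes, at a threshold of 0.05. The common coefficient of variation was 0.0937. Simulated counts with known changes were used to check the scripts. The planted changes were larger than any member change given here, so recovery of changes of the members' size was not checked. Deviations within a group used log2 CPM with a prior count of 2. Libraries held 18246250 to 20471838 counts in genes.

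The members and lists were chosen with earlier results of these data known. Values in every library are given for the 12 called members with the smallest adjusted p (Tk1, Uhrf1, Rpa2, Fen1, Gins2, Gins1, Rfc2, Mcm2, Gins4, Mcm5, Pcna and Mcm3), 1 or more per role, and of each other list up to 4 genes with the smallest p per comparison are named. Orc1, E2f1, Lig1 and Ccne2 were added after their values were seen. Alternatives were other scalings and filters, DESeq2 1.42.0, limma voom (limma 3.58.1), a replicate block, a threshold of 0.01, robust shrinkage, the 8 libraries compared, and leaving out each library. They were applied to the other lists after the data were seen. Promoters came from RefSeq (GRCr8). Coordinates of the counting build are not given, and no protein or genome sequence was used here.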

Additional observations from a re-analysis of the deposited data

Results flagged for a closer look

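In 6 of 117 groups of 4 libraries (39 members in 3 groups), 1 library lay far from the other 3 by Dixon's gap test at 95%, where chance gives about 1 in 20. In Cdc6, the loader, MSCs 4 had 45.1 CPM against 39.2 to 39.7 CPM in the other MSCs libraries, and its call with MSCs was lost without it. In Mcm7, rTMS-MSCs 3 had 221 CPM against 194 to 195 CPM, and its call over OGDR was lost without it. In Ccne1, OGDR 1 had 37.0 CPM against 30.7 to 31.6 CPM. Mcm10 in OGDR 3 had 40.2 CPM against 34.5 to 35.3 CPM. Pold1 in OGDR 4 had 61.2 CPM against 67.9 to 69.0 CPM. Pole in MSCs 3 had 100.1 CPM against 88.6 to 89.4 CPM.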

How the results depend on the processing

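No member call reversed in any of 22 alternatives at the threshold of 0.05. Of the calls, 7 of 9 with MSCs, 3 of 8 with the stimulation (Orc1, Gins1 and Uhrf1) and 14 of 22 over the combined treatment passed in each of these. At a threshold of 0.01 the calls over all genes were 1743 with MSCs, 858 with the stimulation and 2724 over the combined treatment, and the members higher were 1 with the stimulation and 13 over the combined treatment. The members lower with the stimulation were 5 with no filter, 4 with DESeq2 and 4 with limma voom. Over all genes 7.78%, 12.9% and 11.8% were then called lower. The members higher with the stimulation were 3 in a fit of the 8 libraries compared, with 4.23% of all genes called higher. They were 2 without MSCs 3 and rTMS-MSCs 3 together, when the calls over all genes were 677. Whether the replicate numbers pair the samples is not in the labels. Correlations of same-numbered libraries ran from -0.205 to 0.128, and 1 of 12 pairs was over 0.1. Only 1 of 12 libraries correlated best with its own number in both other groups. Between OGDR and MSCs the same-numbered correlations were all positive, at 0.0287, 0.0871, 0.128 and 0.0837. Among the OGDR libraries, each MSCs library correlated best with that of its own number. Correlations this low cannot decide whether the numbers mark shared cultures. With the replicate number as a block, 3 members were higher with the stimulation, with 5.30% of all genes called higher. Leaving out 1 library at a time gave, with MSCs, 7 to 13 members higher, 0 to 1 lower (Cdc45, without MSCs 2) and 2243 to 3451 genes in all; with the stimulation, 2 to 8 higher, 2 to 5 lower and 1006 to 3196 in all; and over the combined treatment, 14 to 21 higher, 1 to 2 lower and 3461 to 4683 in all. The calls over all genes with the stimulation were 1313 without MSCs 1, 1006 without MSCs 3 and 1480.0 without rTMS-MSCs 3. Scaling moved the median of all genes by no more than 0.03 on the log2 scale. The cause of these differences was not tested. With 4 libraries a group and changes of this size, members that missed the threshold may still differ.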

Other observations

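The promoter words differed in frequency between mitosis genes and the members. The CHR word TTTGAA was in 22 of 30 mitosis promoters (73.3%) and in 2 of 32 member promoters (6.25%), and the E2F word in 1 of 30 mitosis promoters (3.33%, Cdk1) and 15 of 32 member promoters. CCAAT was frequent in both, in 22 of 30 and 21 of 32. The wider replication list held both words, the E2F word in 17 of 42 promoters (40.5%) and the CHR word in 12 of 42 (28.6%), and the promoters of Slbp, Topbp1, Pole2 and Atad5 held both. Among the genes of S phase entry, E2f3, Rb1, Rbl1 and Cdc25a held the E2F word. These are matches of letters, and no binding was measured.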
